A study of Mus musculus with 10 samples.

Results

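The genes described here are 40 listed interferon-induced effectors and RNA sensors, followed across 5 preparations of mouse mesenchymal stromal cells (MSCs). A gene was taken where a probe set, the group of probes that reads 1 transcript, carried its symbol and no other in the platform's probe table. Where a gene had several such probe sets, the one with the highest mean over the 10 arrays was to stand for it, but no member had more than 1. In this way 38 of the 40 genes were found, among 19938 genes named on the array. Isg15 appeared only on a probe set that also carried another symbol, and Ifi44 had no entry in the probe table, so neither was analysed here.

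The study compared preparations MSC I, MSC II, MSC III, MSC IV and MSC V with each other. Each came from the bone marrow of female C57BL/6J mice aged 6 to 8 weeks and was read on 2 arrays from biotin-labelled total RNA. All 5 were grown in the same medium, murine MesenCult with 20% mesenchymal supplement and antibiotics, and used at passage 16 to 17. The labels give no treatment or transgene for any group, and do not say how many mice gave a preparation or whether its 2 arrays came from separate cultures. Each p-value thus rests on array-to-array spread alone, and that spread may be technical.

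Interferons are secreted proteins that cells release when they sense foreign nucleic acid. Type I interferon binds the receptor chains Ifnar1 and Ifnar2, and the kinases Jak1 and Tyk2 then lead to a complex holding Stat2 and Irf9 that binds a DNA element called the interferon-stimulated response element (ISRE). The genes behind that element encode proteins that detect viral RNA, block translation or viral assembly, tag proteins with ISG15 or damp the signal. Stromal cells of the bone marrow, like most nucleated cells, can respond to interferon in this way.

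The deposited values were log2 levels from robust multi-array averaging (RMA), which compresses differences between low values, so the difference of a gene that was low in most preparations is understated. Across the 19938 genes, 2 arrays of 1 preparation correlated at 0.990 to 0.994, and arrays of different preparations at 0.922 to 0.986. The median SD between the 2 arrays of a preparation was 0.12 log2 over all genes and 0.18 log2 over the 38 members. The stromal identity of the cells was checked on 14 markers. Pdgfrb lay between 10.83 and 12.33 and Col1a1 between 10.71 and 12.20 on all arrays, whereas Eng stood at 9.69 and 9.50 in MSC IV and at 5.57 to 5.85 elsewhere. In MSC I the markers Eng, Nt5e, Thy1, Alcam and Lepr lay under the median of the whole table (6.55) on both arrays. Of the 14, 3 were called higher and 3 lower in MSC I than in MSC II to V, and 5 differed within MSC II to V. Blood cell markers lay under that median on every array for 12 of 14 genes, the leukocyte gene Ptprc at 5.11 to 5.25, and all 8 endothelial markers lay under it too. In bulk RNA of this kind, fewer cells with a transcript and less of it per cell cannot be told apart.

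Sequences upstream of 5 members are shown first, because they hold the letters of the ISRE described above. RefSeq windows (GRCm38.p6) of 250 bases before to 50 bases after a gene's start were matched for 28 of the 38 members. They were searched for GAAA followed, after any 2 bases, by another GAAA, and for TTTC in the same arrangement, which is the motif on the other strand. The stretches run 5′ to 3′ on the gene's own strand, with the matching letters in capitals.
Ifit1, chr19:34640765-34640833, plus strand: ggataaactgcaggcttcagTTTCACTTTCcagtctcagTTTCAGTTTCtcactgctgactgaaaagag
Oas3, chr5:120777705-120777754, minus strand: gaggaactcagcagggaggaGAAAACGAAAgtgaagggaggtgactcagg
Rsad2, chr12:26456543-26456592, minus strand: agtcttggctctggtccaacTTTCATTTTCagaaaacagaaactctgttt
Bst2, chr8:71537567-71537622, minus strand: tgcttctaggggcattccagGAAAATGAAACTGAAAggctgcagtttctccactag
Trim30a, chr7:104465200-104465249, minus strand: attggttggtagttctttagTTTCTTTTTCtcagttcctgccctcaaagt

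The Ifit1 stretch holds 2 matches, which begin 104 and 85 bases before the start. In Bst2 the 2 matches begin 130 and 124 bases before the start and share 4 bases. The single match in the printed stretch begins 75 bases before the start in Oas3, 120 in Rsad2 and 36 in Trim30a. Trim30a has a second window, of another start, which held a match just downstream of that start and is not printed. Ifit3 also held a match upstream of its start, and Trim21, Ddx58, Ifih1, Eif2ak2 and Ifitm3 held one only downstream of it. The letters were thus in the windows of 11 of 28 members (39.3%), against 605 of 15563 genes (3.89%) with a window. A match describes letters in the window and is not evidence of a bound site.

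In MSC I the genes of this class stood far above the other 4 preparations. A gene was called when its Benjamini-Hochberg adjusted p over all 19938 genes, from the moderated statistic of limma, was under 0.05 and its difference at least 1 log2, a fold of 2. By this rule 32 of the 38 members were higher in MSC I than in the mean of MSC II to V and 0 were lower, where 4.15% of all genes were called higher and 2.67% lower. At an unadjusted p under 0.05, 37 members were higher and 0 lower, where 16.9% of all genes were higher and 18.8% lower. The median difference was 2.34 log2 over the members and -0.02 log2 over all genes. Both MSC I arrays lay above all 8 other arrays for 37 of the 38 members, Mavs being the exception, and this held for 10.8% of all genes. The mean level over the 38 members was 9.87 and 9.89 on the 2 MSC I arrays, against 7.39 and 7.27 in MSC II, 7.47 and 7.41 in MSC III, 6.93 and 6.94 in MSC IV, and 7.39 and 7.54 in MSC V.

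**Figure D1:**
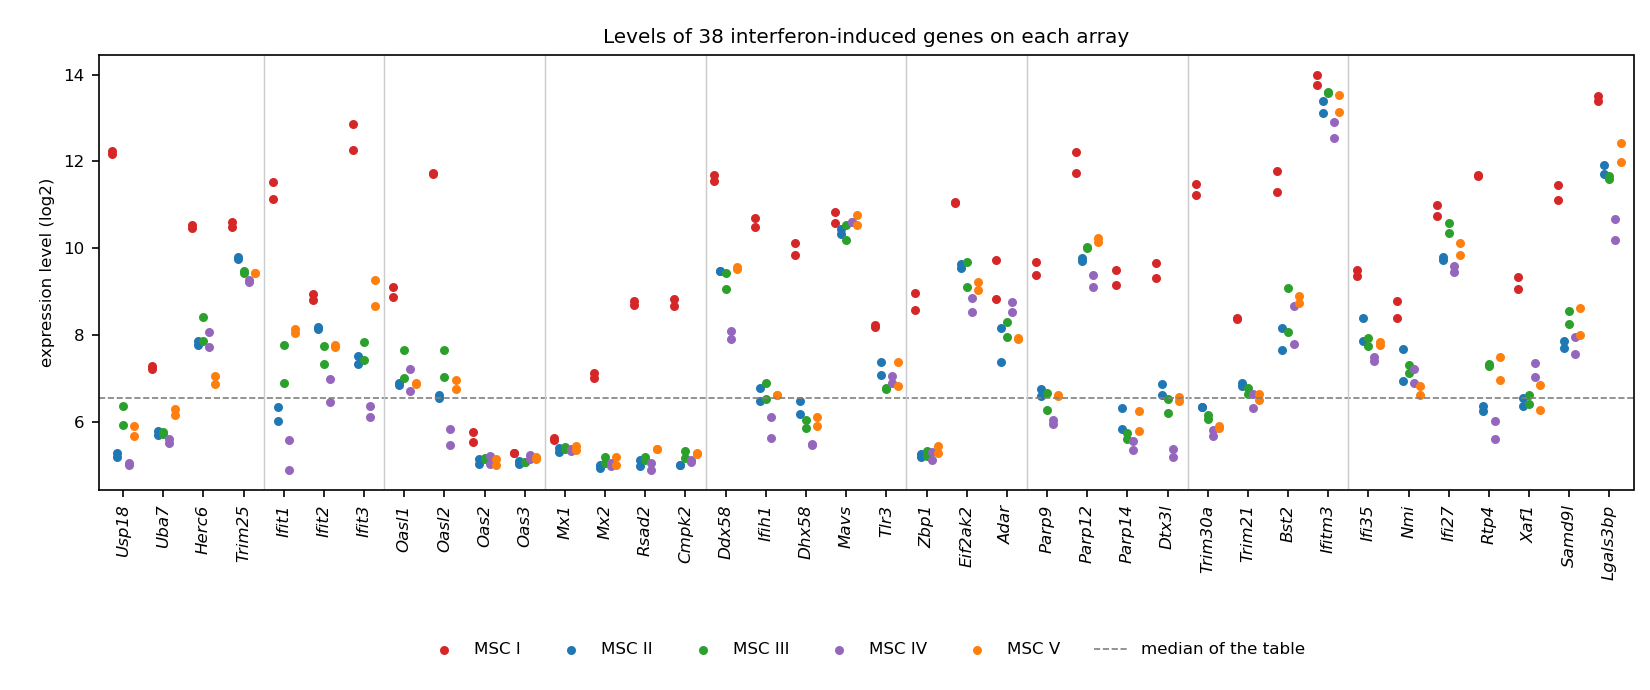
Level (vertical axis, log2) of each of the 38 members (horizontal axis, in groups by role) on each of the 10 arrays, 1 point per array in the colour of its preparation. The MSC I points stand above the rest for 37 members, Oas2, Oas3 and Mx1 lie under the table median of 6.55 on all arrays, and Ifitm3 is at 12.54 or above on all of them.

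The ISG15 system, which attaches the ubiquitin-like protein ISG15 to other proteins, was higher in MSC I for 4 of its 4 measured members. Usp18 removes ISG15 from its targets and damps the type I interferon receptor. It stood at 12.17 and 12.24 on the MSC I arrays, against a lowest, median and highest level of 5.02, 5.49 and 6.37 on the 8 arrays of MSC II to V. Every array of MSC II to V lay at least 5.80 log2 below both MSC I arrays, and the difference of 6.64 ± 0.11 log2 (SE, adjusted p = 3.83e-07, limma), a fold of 99.9, was the largest among the 38 members. Uba7, the enzyme that activates ISG15, reached 7.23 and 7.30 in MSC I, against 5.53, 5.76 and 6.30 as lowest, median and highest elsewhere. Its difference was 1.44 ± 0.06 log2 (adjusted p = 1.16e-05, limma). Herc6, the main ligase for ISG15 in the mouse, stood at 10.47 and 10.53 in MSC I, against 6.88, 7.83 and 8.42 (difference 2.79 ± 0.15). Trim25, a ligase best known for activating the sensor RIG-I, differed by 1.07 ± 0.05 log2 from a level of 9.24 to 9.81 in MSC II to V, close to the minimum for a call.

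The IFIT proteins, which bind RNA that lacks the marks of the cell's own messages, were higher for 3 of 3 members. Ifit1 had 11.14 and 11.53 in MSC I, against 4.90, 6.63 and 8.14 as lowest, median and highest of the other arrays, a difference of 4.62 ± 0.26 log2 (adjusted p = 6.62e-05, limma). Ifit3 had 12.87 and 12.25, against 6.12, 7.47 and 9.28, a difference of 4.99 ± 0.22 log2 (adjusted p = 1.9e-05, limma). Ifit2 was set apart less, with 8.81 and 8.94 in MSC I and 6.47, 7.73 and 8.19 elsewhere (difference 1.33 ± 0.15). The MSC I arrays did not overlap with the others for any of the 3 genes, although Ifit2 in MSC II came within 0.62 log2. Ifit2 and Ifit3 are neighbours on chromosome 19 with no protein-coding gene between them, and the mouse genome holds a near-identical copy of Ifit3, so the Ifit3 signal may include that copy.

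The 2',5'-oligoadenylate synthetase (OAS) family makes the second messenger that activates the RNA-cutting enzyme RNase L. Its 4 members parted into pairs that are also neighbours on chromosome 5. Oasl2, an OAS-like protein, stood at 11.74 and 11.71 in MSC I, against 5.48, 6.70 and 7.66 elsewhere, a difference of 5.10 ± 0.16 log2 (adjusted p = 4.82e-06, limma). Its neighbour Oasl1, which restrains translation of Irf7, differed by 1.98 ± 0.18 log2, with 8.88 and 9.10 in MSC I against 6.72, 6.90 and 7.65. The synthetases Oas2 and Oas3 were not called. Oas2 had 5.54 and 5.78 in MSC I, against 5.01, 5.15 and 5.23, a difference of 0.54 ± 0.09 log2 under the minimum for a call (adjusted p = 0.00512, limma). Oas3 had 5.29 on both MSC I arrays, against 5.03, 5.13 and 5.26, a difference of 0.16 ± 0.05 log2 (adjusted p = 0.0653, limma). All 10 arrays were under the table median for both genes, in the range where RMA compresses differences.

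Of the genes for the Mx GTPases and viperin, 3 of 4 were higher. Rsad2 encodes viperin, which makes a nucleotide that stops viral RNA synthesis, and Cmpk2, its direct neighbour on chromosome 12, supplies nucleotides for that reaction. Rsad2 stood at 8.79 and 8.70 in MSC I, against 4.90, 5.13 and 5.38 elsewhere, and Cmpk2 at 8.84 and 8.67, against 5.01, 5.15 and 5.34. The 2 neighbours had nearly equal differences, 3.60 ± 0.07 log2 for Rsad2 (adjusted p = 4.34e-07, limma) and 3.59 ± 0.07 log2 for Cmpk2 (adjusted p = 4.18e-07, limma). Mx2 reached 7.01 and 7.13 in MSC I, against 4.95, 5.04 and 5.21, a difference of 2.00 ± 0.07 log2. Mx1 had 5.63 and 5.59, against 5.31, 5.39 and 5.44, and its difference of 0.23 ± 0.05 log2 was not called (adjusted p = 0.0191, limma). Mx1 and Mx2 are known to carry defective alleles in C57BL/6 mice.

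The cytoplasmic RNA sensors were higher in MSC I and their shared adaptor was not. Ifih1 encodes MDA5, which senses long double-stranded RNA, and had 10.50 and 10.71 in MSC I, against 5.65, 6.58 and 6.90 elsewhere (difference 4.14 ± 0.16, adjusted p = 1.01e-05, limma). Dhx58 encodes LGP2, a regulator of the other two sensors, and had 10.12 and 9.86, against 5.49, 5.99 and 6.48 (difference 4.04 ± 0.11, adjusted p = 2.64e-06, limma). Ddx58 encodes RIG-I, which senses short RNA with a triphosphate end. It stood at 11.69 and 11.56 in MSC I, against 7.92, 9.46 and 9.56 in the other preparations, which were thus well above the table median already (difference 2.55 ± 0.10, adjusted p = 1.16e-05, limma). The endosomal sensor Tlr3 differed by 1.19 ± 0.14 log2, with 8.24 and 8.19 in MSC I against 6.76, 6.98 and 7.38. Mavs, the mitochondrial adaptor through which RIG-I and MDA5 signal, had 10.59 and 10.83 in MSC I, against 10.20, 10.54 and 10.76. It was the only one of the 38 members whose MSC I arrays overlapped with others, and its difference of 0.21 ± 0.11 log2 was not called (adjusted p = 0.252, limma).

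Other binders of nucleic acid were higher for 3 of 3 members. Zbp1, a sensor of Z-form nucleic acid that can trigger cell death, had 8.58 and 8.96 in MSC I, against 5.14, 5.28 and 5.46 elsewhere (difference 3.49 ± 0.11, adjusted p = 4.29e-06, limma). Eif2ak2 encodes PKR, a kinase that stops translation on binding double-stranded RNA, and had 11.05 and 11.07, against 8.53, 9.17 and 9.68 (difference 1.86 ± 0.15). Adar, which edits adenosine in double-stranded RNA, was the least secure call of the 32. Its MSC I arrays differed from each other by more than those of the other 37 members, at 8.84 and 9.73, against 7.38, 8.07 and 8.76 elsewhere. The difference of 1.16 ± 0.27 log2 (adjusted p = 0.0212, limma) fell to 0.72 log2 without the second MSC I array (adjusted p = 0.155, limma).

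The ADP-ribosyl transferases and their partner were higher for 4 of 4 members. Parp14 had 9.51 and 9.16 in MSC I, against 5.35, 5.77 and 6.32 elsewhere (difference 3.53 ± 0.18). Dtx3l, a ubiquitin ligase, had 9.66 and 9.32, against 5.21, 6.51 and 6.87 (difference 3.25 ± 0.13), and Parp9, which forms a complex with Dtx3l, differed by 3.09 ± 0.12 log2. These 3 genes follow each other on chromosome 16 with no protein-coding gene between them. Parp12, which lies on chromosome 6, differed by 2.18 ± 0.13 log2 from a median of 9.88 in MSC II to V.

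Trim30a, Trim21 and Bst2 were higher, and Ifitm3 was not called. Trim30a belongs to a mouse family of close copies that may share probes. It had 11.22 and 11.48 in MSC I, against 5.68, 5.99 and 6.36 elsewhere, a difference of 5.33 ± 0.08 log2 (adjusted p = 1.97e-07, limma), the second largest of the 38. Bst2, or tetherin, holds budding virus at the cell surface and had 11.30 and 11.78, against 7.66, 8.42 and 9.08 (difference 3.15 ± 0.32, adjusted p = 0.000872, limma). Trim21, a receptor for antibody-coated virus inside the cell, differed by 1.72 ± 0.09 log2. Ifitm3, which blocks virus entry from endosomes, was high on every array, with 13.75 and 13.99 in MSC I against 12.54, 13.27 and 13.61. Its arrays did not overlap, but the difference of 0.65 ± 0.14 log2 stayed under the minimum for a call (adjusted p = 0.0173, limma).

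Of the 7 other induced proteins, 6 were called. Rtp4, a chaperone for the transport of receptors, had 11.66 and 11.68 in MSC I, against 5.62, 6.67 and 7.50 elsewhere (difference 5.00 ± 0.15, adjusted p = 3.76e-06, limma). Samd9l, which limits translation and cell growth, had 11.46 and 11.11, against 7.56, 7.98 and 8.62 (difference 3.21 ± 0.19). Xaf1, a partner of the apoptosis inhibitor XIAP, differed by 2.51 ± 0.17 log2, the secreted glycoprotein gene Lgals3bp by 1.92 ± 0.15, Ifi35 by 1.61 ± 0.13 and its binding partner Nmi by 1.50 ± 0.20. Ifi27 missed the minimum narrowly, with 11.01 and 10.76 in MSC I against 9.46, 9.83 and 10.58 (difference 0.95 ± 0.11, adjusted p = 0.00119, limma). Without the second MSC I array its difference was 1.07 log2 and it was called (adjusted p = 0.00596, limma).

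**Figure D2:**
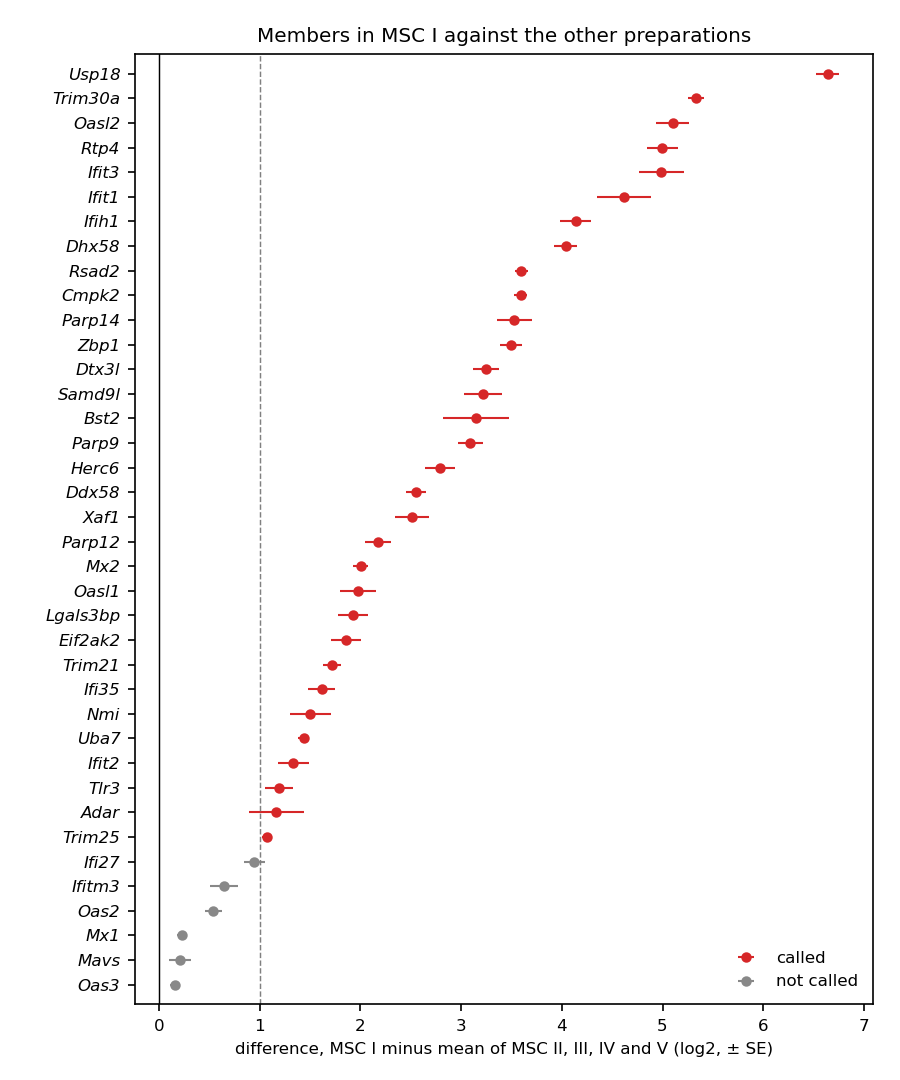
Difference of each of the 38 members between MSC I and the mean of MSC II to V (horizontal axis, log2, bars of 1 SE from the fit over 10 arrays), with called members in red, those not called in grey and the dashed line at the minimum of 1 for a call. All 38 points lie above 0, the lowest being Oas3 at 0.16 and the highest Usp18 at 6.64.

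Level in the other preparations separated the members further. For 9 of the 38, Usp18, Mx2, Rsad2, Cmpk2, Trim30a, Dhx58, Zbp1, Parp14 and Uba7, both MSC I arrays lay above the table median and all 8 other arrays under it. This pattern was found in 0.868% of all genes. Oas2, Oas3 and Mx1 lay under the median on all 10 arrays, as did 43.5% of all genes. Of the 11 members with a match to the ISRE letters, 9 were higher in MSC I, as were 16 of the 17 with a window but no match. The uncalled ones were Oas3 and Ifitm3, with a match, and Mavs, without. These are too few to show whether the letters divide called from uncalled members. Median differences were 3.15 log2 with a match and 1.92 log2 without. The ranges, 0.16 to 5.33 and 0.21 to 5.10, overlapped over most of their length. Among the genes printed above, Trim30a, Ifit1, Rsad2 and Bst2 were called and Oas3 was not.

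The separation of MSC I did not rest on a single other preparation. Against MSC II, 30 of the 38 members were higher and 0 lower, where 4.21% of all genes were higher and 3.54% lower. Against MSC III, 31 members were higher (background 3.36%) and 0 lower (background 2.39%). Against MSC IV, 33 were higher (background 6.54%) and 0 lower (background 4.27%). Against MSC V, 32 were higher (background 3.2%) and 0 lower (background 2.28%). At an unadjusted p under 0.05, 0 members were lower in any of these comparisons, where 17.3%, 14.9%, 19.6% and 13.8% of all genes were lower against MSC II, III, IV and V. The 4 comparisons share the MSC I arrays, so they are not independent. Median differences of the members were 2.19, 2.16, 2.67 and 2.10 log2 against MSC II, III, IV and V. Oas2, Oas3, Mx1 and Mavs were called in none of the 4, and Ifitm3 only against MSC IV. Trim25, Ifit2 and Tlr3 were not called against MSC II, Ifi27 was not called against MSC III or MSC V, and Adar was not called against MSC III (1.16 log2, adjusted p = 0.0688, limma) or MSC IV.

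The members also differed among MSC II, III, IV and V, at a smaller scale. A moderated F test over all 5 preparations called 33 of 38 members (background 14.6%), and the same test over MSC II to V alone called 10 (background 7.31%). These 10 were Usp18, Ifit1, Ifit2, Ifit3, Oasl2, Ddx58, Rtp4, Dtx3l, Lgals3bp and Herc6. The widest ranges of preparation means within MSC II to V were those of Ifit1, 2.85 log2 (adjusted p = 0.00796, limma), and Ifit3, 2.72 log2 (adjusted p = 0.00677, limma). For comparison, the range of Usp18 was 1.11 log2 within MSC II to V and 7.16 log2 over all 5 preparations. Zbp1 and Mx2, called in MSC I, had ranges of 0.15 and 0.14 log2 within MSC II to V at levels under the table median.

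MSC IV was the lowest of these 4 preparations for much of the class. Set against the mean of MSC II, III and V, 8 members were lower in MSC IV (background 3.02%) and 0 higher (background 1.43%). At an unadjusted p under 0.05, 23 were lower and 2 higher, where 13.1% of all genes were lower and 14.2% higher. The median difference was -0.39 log2 over the members and 0.02 log2 over all genes. Both MSC IV arrays lay below the 6 arrays of MSC II, III and V for 21 of the 38 members, where this held for 9.8% of all genes. The same 21 also lay below both MSC I arrays, and so below all 8 other arrays, as did 7.46% of all genes. The mean of MSC IV was the lowest of the 4 preparations for 25 members, where this held for 23.3% of all genes.

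Ifit1 had 4.90 and 5.59 in MSC IV, against 6.34 and 6.04 in MSC II, 7.78 and 6.91 in MSC III, and 8.05 and 8.14 in MSC V. Its difference of -1.96 ± 0.27 log2 (adjusted p = 0.00616, limma) was the largest of the 8. Ifit3 had 6.12 and 6.38 in MSC IV, against 7.35 and 7.53 in MSC II, 7.85 and 7.42 in MSC III, and 8.67 and 9.28 in MSC V. For both genes the MSC IV arrays lay below all others and the MSC V arrays above those of MSC II and III. Ddx58 had 8.10 and 7.92 in MSC IV, against 9.07 to 9.56 in MSC II, III and V, a difference of -1.41 ± 0.10 log2 (adjusted p = 0.000685, limma). Lgals3bp had 10.67 and 10.20 in MSC IV, against 11.59 to 12.42 in MSC II, III and V (difference -1.45 ± 0.16). Oasl2 (-1.27 ± 0.17), Dtx3l (-1.25 ± 0.13), Rtp4 (-1.14 ± 0.16) and Ifit2 (-1.08 ± 0.16) made up the rest. The calls of Ifit2 and Rtp4 were lost without the second MSC IV array, with adjusted p = 0.052 and 0.0604 (limma), and Ifih1 was then called lower. Xaf1 and Adar ran the other way, with their highest means of the 4 in MSC IV, but neither was called (0.69 log2, adjusted p = 0.0477, and 0.70 log2, adjusted p = 0.163, limma).

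MSC IV also differed in cell markers. Its 2 arrays had the highest mean level of the 6 osteoblast markers, 11.11 and 10.89 against 7.92 to 9.32 in MSC II, III and V, with Sp7 higher by 3.94 ± 0.61 log2 and Alpl also called higher. Of 14 stromal markers, 2 were higher and 2 lower in MSC IV, with differences from -3.25 log2 for Vcam1 to 3.94 log2 for Eng. Of 8 adipocyte markers 2 were lower, Fabp4 and Cebpa, and of 14 blood cell markers 1 was lower, Cd14 (-1.07 log2). Xist, the RNA of the inactive X chromosome, was lower in MSC IV, with a difference of -2.06 ± 0.13 log2. The part of these differences in the level of the members was not tested.

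In MSC V, Ifit1 and Ifit3 were higher, and the third IFIT gene, Ifit2, differed by 0.27 log2 and was not called. Against the mean of MSC II, III and IV, 2 members were higher in MSC V (background 1.27%) and 0 lower (background 0.647%), with 10 higher and 1 lower at an unadjusted p under 0.05 (background 11.2% and 12.7%). They were Ifit3, by 1.87 ± 0.23 log2 (adjusted p = 0.00726, limma), and Ifit1, by 1.83 ± 0.27 log2 (adjusted p = 0.0129, limma). Both MSC V arrays lay above those of MSC II, III and IV for 7 members (background 7.73%), these being Ifit1, Ifit3, Rsad2, Ddx58, Parp12, Lgals3bp and Uba7. The call of Ifit1 was lost without either MSC V array (adjusted p = 0.0793 and 0.0717, limma), while its difference remained at 1.79 log2 or more. Herc6 was lowest in MSC V, with 7.06 and 6.88 there against 7.73 to 8.42 in MSC II, III and IV, a difference of -0.99 ± 0.16 log2 just under the minimum (adjusted p = 0.0157, limma). It was called lower when the first MSC III array or the second MSC IV array was left out. The macrophage-associated gene Cd68 was the 1 of 14 blood cell markers called higher in MSC V (1.62 ± 0.13 log2), while Ptprc stayed at 5.11 to 5.25 on all arrays, and Xist was lower there, with a difference of -1.14 ± 0.13 log2. Their part in the MSC V values was not tested.

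In MSC II, 0 members were called against the mean of MSC III, IV and V, where 1.17% of all genes were higher and 0.908% lower, and 11 were higher and 4 lower at an unadjusted p under 0.05 (background 11.6% and 10.1%). The 4 lower members are thus a share near the background. The nearest to a call was Ifit2, 0.82 log2 higher (adjusted p = 0.0282, limma). In MSC III, 0 members were called against the mean of MSC II, IV and V (background 0.527% higher and 0.276% lower), with 7 higher and 0 lower at an unadjusted p under 0.05 (background 8.79% and 8.81%). Usp18 was 0.80 log2 higher in MSC III (adjusted p = 0.0252, limma) and passed the minimum, at 1.01 log2, when the second MSC III array was left out (adjusted p = 0.0418, limma).

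**Figure D3:**
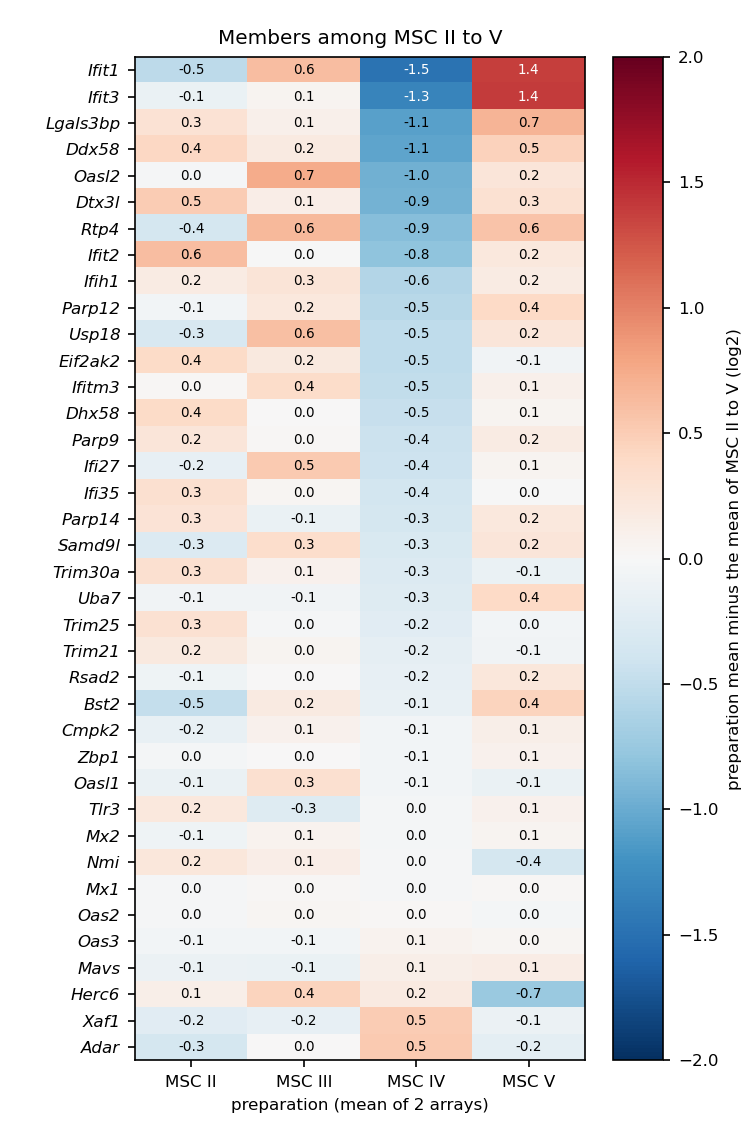
Mean of each of MSC II, III, IV and V (columns, 2 arrays each) minus the mean over these 4 preparations (colour and number, log2) for each of the 38 members (rows, ordered by their value in MSC IV). Ifit1 and Ifit3 have the lowest values in the MSC IV column and the highest in the MSC V column.

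The rest of the pathway was read on listed genes upstream of and beside the members. Between MSC I and MSC II to V, 4.15% of all genes were called higher and 2.67% lower. The interferon genes themselves gave no difference: 0 of 14 were called between MSC I and MSC II to V, 0 passed even an unadjusted p under 0.05, and their differences ran from -0.13 to 0.12 log2. Ifnb1, the gene of interferon beta, had 5.00 and 5.11 in MSC I and 5.06 to 5.22 elsewhere, and 12 of the 14 lay under the table median on every array, Ifna5 and Ifnl2 being the exceptions. Of 6 receptor genes, 1 was higher, the type II interferon receptor chain Ifngr1 (1.17 ± 0.14 log2, adjusted p = 0.00139, limma). Ifnar1 stood at 10.17 and 9.93 in MSC I and at 9.92 to 10.45 elsewhere.

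Among 19 signalling genes and transcription factors, 4 were higher in MSC I (background 4.15%) and 1 lower (background 2.67%), with a median difference of 0.29 log2. Irf7, the factor that amplifies interferon alpha production, had 10.81 and 10.47 in MSC I, against 4.94 to 5.42 elsewhere. Its difference of 5.44 ± 0.10 log2 (adjusted p = 3.83e-07, limma) exceeded that of every member but Usp18. Irf9 and Stat2, which belong to the complex that binds the ISRE, were higher by 2.08 ± 0.12 and 1.74 ± 0.13 log2. Socs3, a feedback inhibitor, was higher by 1.44 ± 0.22 log2. Jak2, a kinase of the type II interferon receptor, was lower, with a difference of -1.18 ± 0.21 log2. The difference of Jak2 was -2.28 log2 against MSC IV alone and -0.19 log2 against MSC V alone. Of the 19 genes, 0 were called lower against MSC III or against MSC V. Of 16 genes of DNA sensing and shared adaptors, 2 were higher (background 4.15%), around a median of 0.11 log2. They were Sting1 (1.52 ± 0.19 log2) and the kinase gene Ikbke (1.31 ± 0.12 log2). Against MSC V alone neither was called, with differences of 0.31 log2 for Sting1 and 0.35 log2 for Ikbke. Against MSC IV alone both were called, with differences of 3.40 and 2.33 log2.

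A further list of 39 interferon-induced genes outside the 38 members had 23 higher (background 4.15%) and 0 lower (background 2.67%) in MSC I. Its median was 1.46 log2, and 31 were higher at an unadjusted p under 0.05 (background 16.9%). Against MSC II, III, IV and V alone, 21, 24, 25 and 16 of the 39 were higher (background 4.21%, 3.36%, 6.54% and 3.2%). The largest differences in it were those of the GTPase gene Gm4951 (5.23 ± 0.06 log2), Ifi203 (5.10 ± 0.10) and Ifi205 (4.88 ± 0.09). The synthetase genes Oas1b and Oas1a, relatives of the uncalled Oas2 and Oas3, were higher by 3.70 ± 0.07 and 2.80 ± 0.09 log2, although near-identical Oas1 copies may share probes. Of 12 genes listed as targets of type II interferon, 2 were higher (background 4.15%), the chemokine genes Cxcl10 (4.63 ± 0.41 log2) and Cxcl9 (2.31 ± 0.17 log2). Whether these genes answered type II rather than type I interferon was not tested. Cd74, the invariant chain of class II antigen presentation, was lower, with a difference of -1.59 ± 0.46 log2 (adjusted p = 0.0456, limma). It was not called against MSC IV alone (-1.72 log2) or MSC V alone (-1.13 log2). Of the 12 genes, 1 was called lower against MSC III and 0 against MSC II. The median of these 12 against the mean of MSC II to V was 0.01 log2.

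The order of MSC IV and MSC V seen in Ifit1 and Ifit3 was also seen in Apobec3 and Sting1. In MSC IV, 6 of the 39 further induced genes were lower than in MSC II, III and V (background 3.02%). They were led by the cytidine deaminase gene Apobec3 (-2.77 ± 0.21 log2) and Slfn8 (-2.09 ± 0.12). Sting1 was lower too, with a difference of -2.51 ± 0.19 log2. In MSC V, 7 of the 39 were higher than in MSC II, III and IV (background 1.27%), led again by Apobec3 (2.37 ± 0.21 log2). Sting1 was higher by 1.61 ± 0.19 log2. Sting1 averaged 7.83 ± 0.48 log2 in MSC IV and 10.92 ± 0.17 in MSC V, against 10.04 ± 0.05 in MSC II and 10.07 ± 0.04 in MSC III (SD, n = 2 arrays each). The 2 comparisons share arrays, since each preparation enters the mean that the other is set against.

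**Figure D4:**
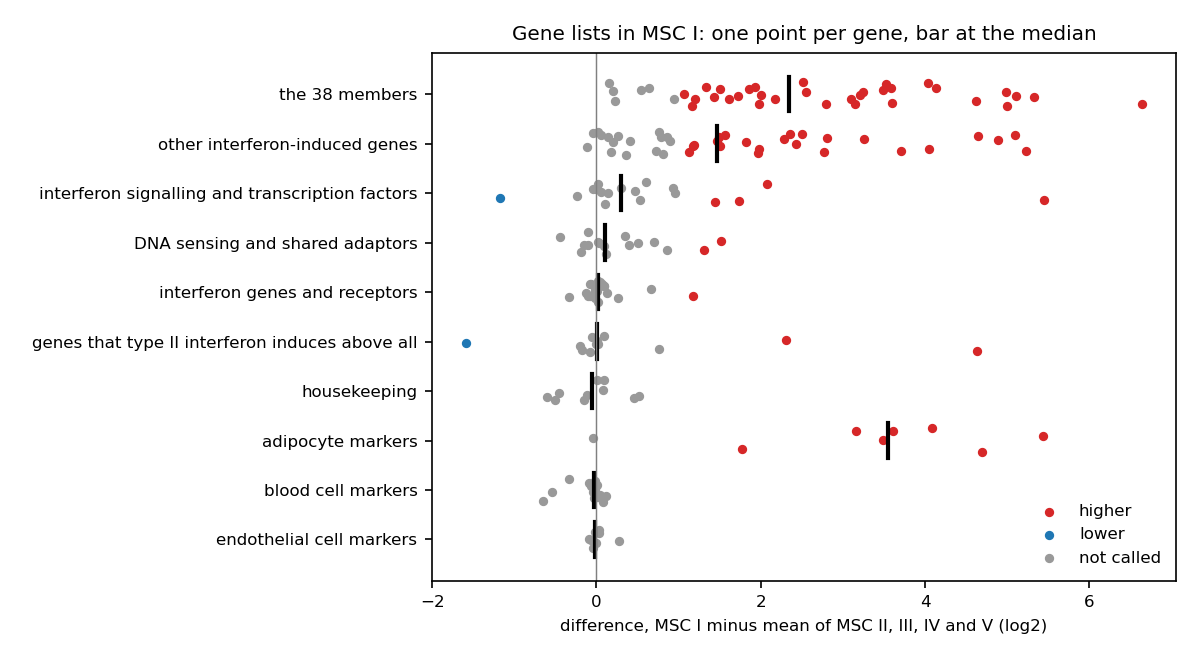
Difference between MSC I and the mean of MSC II to V (horizontal axis, log2) for each gene of the 38 members and of 9 other lists, 1 point per gene, coloured by its call, with a bar at the median of each list. The medians of the members (2.34), of the other interferon-induced genes (1.46) and of the adipocyte markers (3.55) lie to the right of 0, and no blood or endothelial marker was called in this comparison.

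Markers of other cell types moved with the members in part. Of 8 adipocyte markers, 7 were higher in MSC I (background 4.15%), with a median of 3.55 log2 over the 8. The mean level of the 8 was 10.36 and 9.84 on the MSC I arrays, against 6.37 to 7.12 on the others. Adipoq, the defining secreted protein of fat cells, had 10.97 and 9.94 in MSC I and 4.80 to 5.17 elsewhere. Of 6 osteoblast markers, 2 were lower in MSC I (background 2.67%), Sp7 (-3.53 ± 0.59 log2) and Ibsp (-5.59 ± 0.97 log2). The part of these cell states in the level of the members was not tested. Of 14 blood cell markers, 0 were called between MSC I and the mean of MSC II to V, and their differences ran from -0.65 to 0.12 log2. In the same comparison 0 of 8 endothelial markers and 0 of 10 housekeeping genes were called. However, 4 of the 10 housekeeping genes had an adjusted p under 0.05 (limma), and the differences of the 10 ran from -0.60 to 0.52 log2. Against MSC V alone, 2 of the 14 blood cell markers were lower in MSC I, Cd68 (-1.55 log2, adjusted p = 0.00121, limma) and Cd14 (-1.31 log2, adjusted p = 0.0148, limma).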

How the data were processed

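The 10 arrays of 5 preparations were grouped by sample title. The authors deposited log2 values of 35399 probe sets; per the submitters' processing notes they used RMA and Partek, whose versions are not given in the sources used here. In the platform table, 21789 probe sets had 1 symbol, 1621 several and 11989 none; those with 1 symbol gave 19938 genes (999 with several probe sets, the highest mean being used). Detection calls were not used, so a low level is no evidence of absence. No test compared levels between probe sets, but levels were set against the table median and averaged over gene lists. The number of arrays limits the precision.

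Preparation means were fitted over all 10 arrays with limma 3.58.1 (lmFit, eBayes) under R 4.3.3, with no filter on low values, and adjusted by Benjamini-Hochberg over all genes. P-values were two-sided, and the fit was tested on simulated data. Calls needed an adjusted p under 0.05 and at least 1 log2 (for F tests, a range of means of at least 1 log2). Tables, promoter searches and figures were made in Python 3.11.15. Errors after a difference are SE from the fit. Alternatives were low-value filters, averaging a gene's probe sets, other scalings, eBayes with trend and robust settings, a replicate block and leaving out each array. Gene names are those of the platform table; neighbours came from RefSeq gene order (GRCm38.p6). Every member, and every called gene of the pathway lists, could be named. The members and lists were chosen with earlier results of these data known.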

Additional observations from a re-analysis of the deposited data

How the results depend on the processing

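Among the differences recomputed under each alternative, those of the 38 members between MSC I and MSC II to V, of the 8 members called in MSC IV and of the 2 called in MSC V, none changed sign. The count of 32 members higher in MSC I held, as a number, under every alternative but a stricter low-value filter (75th percentile), which left only 22 members to test. There 19 were higher in MSC I than in the mean of MSC II to V. The counts against MSC II, III, IV and V were 19, 19, 21 and 19, and 21 passed the F test over all 5 preparations. Members such as Usp18, Trim30a and Rtp4 passed this filter, at 9.22 log2, on the MSC I arrays alone. The filter at the table median tested 35 members and called the 32. Both filters kept a gene that passed the cut on at least 2 arrays, so the 2 MSC I arrays alone could keep it. At the table median, 9 members were kept in that way. The counts after filtering are thus not independent support for a higher level in MSC I. Leaving out 1 array at a time gave 32 to 32 members higher in MSC I than in MSC II to V, 28 to 31 against MSC II, 30 to 32 against MSC III, 32 to 33 against MSC IV and 28 to 32 against MSC V. It gave 7 to 8 lower in MSC IV, 1 to 2 higher and 0 to 1 lower in MSC V, 0 to 1 higher in MSC III, 31 to 34 by the F test over all 5 and 9 to 10 by that over MSC II to V. The correlation between preparations of the differences between replicates ran from -0.53 to 0.18, so replicate numbers showed no pairing in a common direction. Whether replicates shared a technical factor in another way was not tested. With the replicate block, 32 members were higher in MSC I than in MSC II to V and 8 lower in MSC IV. A preparation left with 1 array was taken to have the spread of the remaining ones. In the 4 pairs with MSC I, the calls that changed between settings were those of Adar, Nmi, Tlr3, Ifit2, Uba7, Ifi27 and Ifitm3. Over all genes, the count lower in MSC IV was 603 with all arrays and 273 without the second MSC IV array, and the count higher in MSC V was 253 with all arrays and 108 without the first MSC V array. The count higher in MSC III was 105 with all arrays and 28 or 30 without its first or second array. In MSC II, 233 genes were higher and 181 lower with all arrays, and 107 and 60 without its second array. RMA's compression limits what the low members Oas2, Oas3 and Mx1 can show.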
